A study of Mus musculus with 8 samples.

Results

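Imprinted genes are transcribed mainly from the copy inherited from one parent. The 36 genes described here were picked by symbol and not by a cutoff on their values, though earlier results of these data were known. Each had 1 row among the 24849 rows of the files. They lie on 9 chromosomes in 16 clusters, of which 9 hold at least 2 of the genes. By background knowledge 20 are expressed from the paternal copy, 10 from the maternal copy, and 6 (Ube3a, Copg2, Grb10, Commd1, Gnas and Dcn) from one copy only in some tissues. A gene was tested where its mean passed 1 FPKM (fragments mapped to a gene, scaled for transcript length and library size) in at least 1 group, which held for 31 of the 36. The filter left out Ascl2, Slc22a18, Usp29, Zim1 and Rasgrf1. Magel2 passed it through 1 group only, wild type at day 6, where it was highest. Airn and Kcnq1ot1 passed it only through the 2 groups of day 6, where they were highest. FPKM adds up both parental copies, so these values say how much RNA was present and not from which copy it came.

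PolyA RNA was sequenced from mouse embryonic stem cells (mESCs) of the MPI-II line, for which the source label gives 129S2/SvPas, in 8 libraries. Wild-type and Pcgf5-/- cells were sampled at day 0, on feeder cells in serum with LIF and the 2i inhibitors, and at day 6 after a change to N2B27, a serum-free medium that favours neural differentiation. Each of the 4 groups had 2 libraries. In Pcgf5-/- cells, TALEN nucleases had cut the second exon of Pcgf5. After selection with puromycin and G418 single colonies were grown, so the mutant line descends from single cells. Loss of Pcgf5 and other differences of such a line from wild type therefore cannot be told apart. The study's legends call the samples of its expression heatmaps biologically independent. The labels do not say whether the 2 libraries of a group came from separate cultures, and p-values then measure only the spread between these libraries. Below, a pair of values is replicate 1 followed by replicate 2, in FPKM, and stands in place of a mean and SD.

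At an imprinted locus, DNA methylation laid down in the egg or the sperm marks an imprinting control region. The mark is kept through cell division by KRAB zinc finger proteins such as ZFP57 and ZFP445 with their co-repressor TRIM28 and by the methyltransferase DNMT1, and it sets which parental copy of the genes nearby is active. Many clusters pair protein-coding genes with a long noncoding RNA, such as Airn, Kcnq1ot1 or Meg3, and many members act in growth, placenta and brain. PCGF5 is a subunit of a variant Polycomb repressive complex 1, which ubiquitinates histone H2A.

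RefSeq promoter windows of 250 bases before to 50 bases after a transcript start (taken from build GRCm38.p6) were used for 29 of the 36 genes, with 43 windows. No window of the RefSeq table was used for Peg10, Dcn, Rtl1, Sgce, Impact, Cdkn1c and H19. The shares of the imprinted genes below therefore leave these genes out. ZFP57 binds the hexamer TGCCGC when it is methylated. The hexamer stood on either strand in a window of 10 of these 29 genes (34.5%), which were Nnat, Mest, Copg2, Zim1, Snrpn, Igf2, Plagl1, Grb10, Commd1 and Meg3. Over all 27025 genes of the table the share was 13.1%. By window it was 25.6% (11 of 43) against 11.6% of 32851. The members' windows were rich in CpG, with a median of 14 CpG against 7, and of the 11920 windows in the table with at least 14 CpG, 24.7% held the hexamer. A match is a string of letters and no evidence of binding.

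The windows of 4 genes are shown because these are genes on which the values below turn: Nnat and Mest, with large rises over 6 days, Plagl1, which fell, and Meg3, which was higher in Pcgf5-/- cells. They were chosen after their content was seen. Each is the strand of the gene, 5′ to 3′, its 300 bases matched the mm9 genome exactly at 1 place, and capitals mark the hexamer as read on the opposite strand.
Nnat, chr2:157385564-157385863, plus strand: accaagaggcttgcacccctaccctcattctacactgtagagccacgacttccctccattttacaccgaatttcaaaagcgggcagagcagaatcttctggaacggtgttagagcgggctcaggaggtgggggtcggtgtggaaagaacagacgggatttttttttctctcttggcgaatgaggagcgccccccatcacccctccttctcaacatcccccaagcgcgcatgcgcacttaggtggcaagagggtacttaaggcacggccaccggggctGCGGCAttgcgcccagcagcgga
Mest, chr6:30687800-30688099, plus strand: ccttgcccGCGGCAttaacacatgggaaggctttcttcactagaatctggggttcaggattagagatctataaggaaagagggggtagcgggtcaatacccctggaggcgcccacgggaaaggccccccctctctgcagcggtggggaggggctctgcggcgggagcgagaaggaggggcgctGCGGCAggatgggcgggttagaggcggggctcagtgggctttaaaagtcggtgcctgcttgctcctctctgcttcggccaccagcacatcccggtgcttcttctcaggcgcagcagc
Plagl1, chr10:12810388-12810687, plus strand: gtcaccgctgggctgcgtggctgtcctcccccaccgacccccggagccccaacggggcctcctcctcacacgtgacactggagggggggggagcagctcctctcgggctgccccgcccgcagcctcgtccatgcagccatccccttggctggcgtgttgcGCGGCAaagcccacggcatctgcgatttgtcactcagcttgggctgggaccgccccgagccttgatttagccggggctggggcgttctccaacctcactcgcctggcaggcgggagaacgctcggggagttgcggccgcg
Meg3, chr12:110778956-110779255, plus strand: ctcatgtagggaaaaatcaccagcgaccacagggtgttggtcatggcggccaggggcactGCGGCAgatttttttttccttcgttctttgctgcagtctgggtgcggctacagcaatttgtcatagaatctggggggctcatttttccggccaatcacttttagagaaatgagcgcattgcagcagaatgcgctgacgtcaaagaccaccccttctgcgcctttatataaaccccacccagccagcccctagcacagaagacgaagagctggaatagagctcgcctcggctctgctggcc
The Nnat, Plagl1 and Meg3 windows hold 1 such hexamer each and the Mest window holds 2. The CpG counts of the windows are 17 for Nnat, 17 for Mest, 26 for Plagl1 and 13 for Meg3.

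The number of fragments behind an FPKM value is not in the files, so the depth of a value is unknown. Summed FPKM of a library ranged from 363066 to 411496, and the 36 genes together made up 559 and 537 FPKM in wild type at day 0, 728 and 803 in Pcgf5-/- at day 0, 1833 and 2030 in wild type at day 6, and 1688 and 1805 in Pcgf5-/- at day 6. Pcgf5 itself stood at 5.18 and 3.63 FPKM in wild type and 1.28 and 1.84 in Pcgf5-/- at day 0, and at 9.16 and 5.06 against 0.669 and 0.457 at day 6. Its log2 fold change between genotypes was -1.07 (SE 0.28, adjusted p = 0.105) at day 0 and -2.33 (SE 0.28, adjusted p = 0.00421) at day 6. The summed level of 10 naive pluripotency markers was 2091 to 2256 FPKM in the day 0 libraries, 373 and 168 in wild type and 1004 and 982 in Pcgf5-/- at day 6. That of 10 neural progenitor markers was 13.3 to 18.7 at day 0, and 385 and 381 against 143 and 154 at day 6. At day 6, 9 of the 10 pluripotency markers were higher and all 10 progenitor markers lower in Pcgf5-/- cells. The day 6 genotype differences below therefore come from populations that differed in these markers. In bulk RNA, fewer cells of a type and less RNA per cell cannot be told apart.

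Markers of fibroblasts, the usual cells of a feeder layer, differed between libraries. Their sum over 15 genes was 397 and 330 FPKM in wild type and 252 and 937 in Pcgf5-/- at day 0, and 92.8 and 243 against 67.2 and 73.0 at day 6. Pcgf5-/- replicate 2 of day 0 was thus 3.72 times replicate 1. A set of 9 extraembryonic endoderm markers stood apart in wild-type replicate 1 of day 6, at 102 FPKM against 5.06 to 28.4 in the other libraries. The 6 mesendoderm markers summed to 2.53 to 9.94 FPKM. Genes of chromosomes 6 and 11 had higher values in Pcgf5-/- as a whole. Their median log2 fold changes between genotypes were 0.41 and 0.48 at day 0, and 0.37 and 0.38 at day 6. The medians of the other chromosomes were 0.04 to 0.12 at day 0 and -0.06 to 0.03 at day 6. Peg10, Sgce, Mest and Copg2 lie on chromosome 6, and Grb10, Zrsr1 and Commd1 on chromosome 11.

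**Figure D1:**
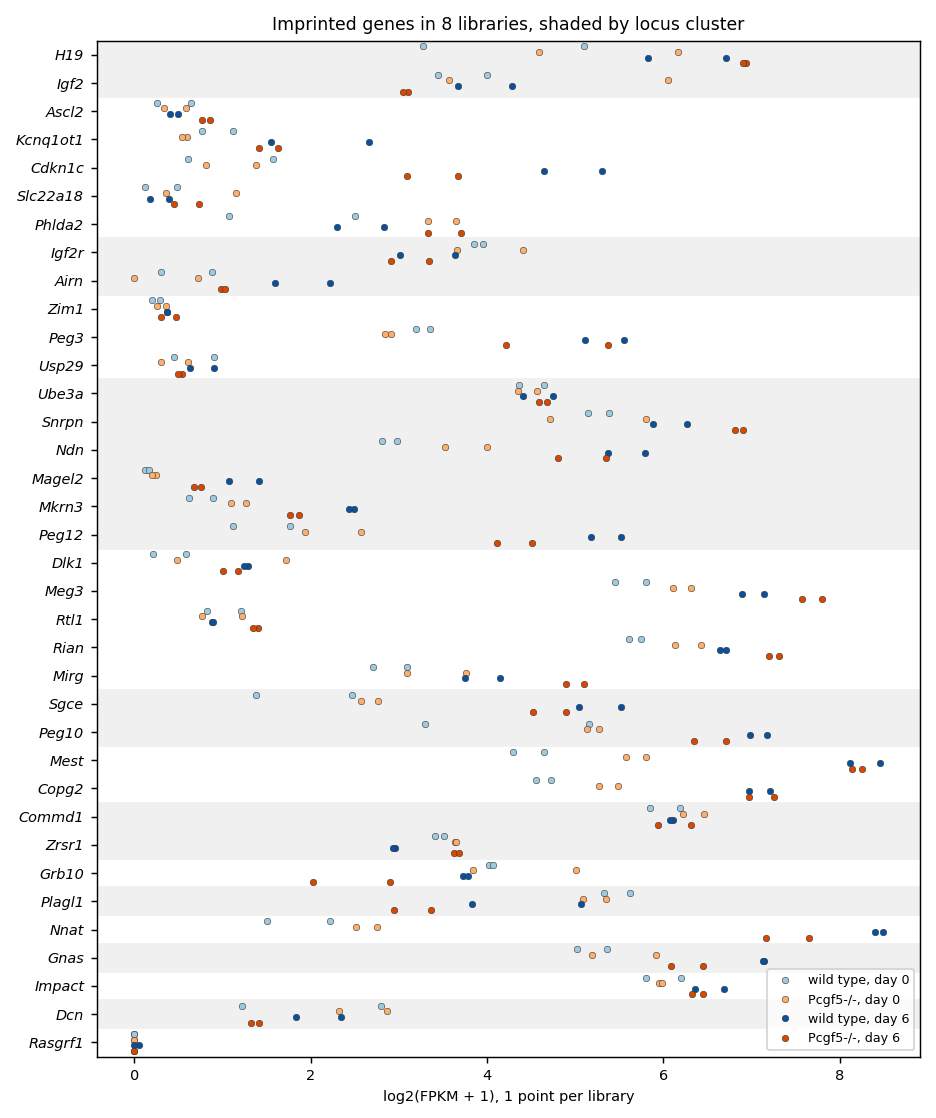
Level of the 36 imprinted genes on the log2(FPKM + 1) scale, 1 point per library, coloured by genotype and day, with bands of shading separating the locus clusters. Nnat moves furthest to the right between day 0 and day 6, and Rasgrf1 lies at 0 in all libraries but 1.

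Over 6 days in wild-type cells, most of the tested imprinted genes rose. Of the 31 tested, 19 were higher and 2 lower at day 6 at a Benjamini-Hochberg adjusted p under 0.05 of limma's moderated test on log2(FPKM + 1). Over all 13214 genes tested, 34.2% were higher and 16.2% lower. Magel2 is among the 19, but it had to differ to pass the filter, and without it 18 of 30 were higher. Airn and Kcnq1ot1 remain among these 18, though they passed the filter only through the day 6 groups, which favoured a rise. Without a filter, 16 of the 36 were higher and 1 lower. The median log2 change of the 31 imprinted genes was 1.10, and that of all genes 0.22. In Pcgf5-/- cells 13 of the 31 were higher and 3 lower, where 21.9% and 10.4% of all genes were, with a median of 0.71 against 0.13. Quantile normalization moved the median of all genes by -0.21 in wild type and -0.10 in Pcgf5-/-, and the split of all calls from 4522 higher and 2146 lower to 3181 and 3020 in wild type and from 2898 and 1373 to 1961 and 1734 in Pcgf5-/-. Under it 17 imprinted genes were higher and 3 lower in wild type, and 13 and 4 in Pcgf5-/-.

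Cdkn1c, Copg2, Meg3, Mest, Mirg, Mkrn3, Ndn, Nnat, Peg12, Peg3, Rian and Sgce rose in both genotypes, 12 genes in all. Airn, Gnas, H19, Impact, Kcnq1ot1 and Peg10 passed the test in wild type and not in Pcgf5-/-, and Snrpn in Pcgf5-/- and not in wild type. Magel2 also passed in wild type alone, but only its level there at day 6 brought it past the filter, so that call carries no weight. Plagl1 fell in both genotypes, Zrsr1 fell in wild type, and Grb10 and Igf2r fell in Pcgf5-/-. Commd1, Dcn, Dlk1, Igf2, Phlda2, Rtl1 and Ube3a passed in neither. Passing in 1 genotype alone does not show that the genotypes differ, and the test of that difference is given below.

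**Figure D2:**
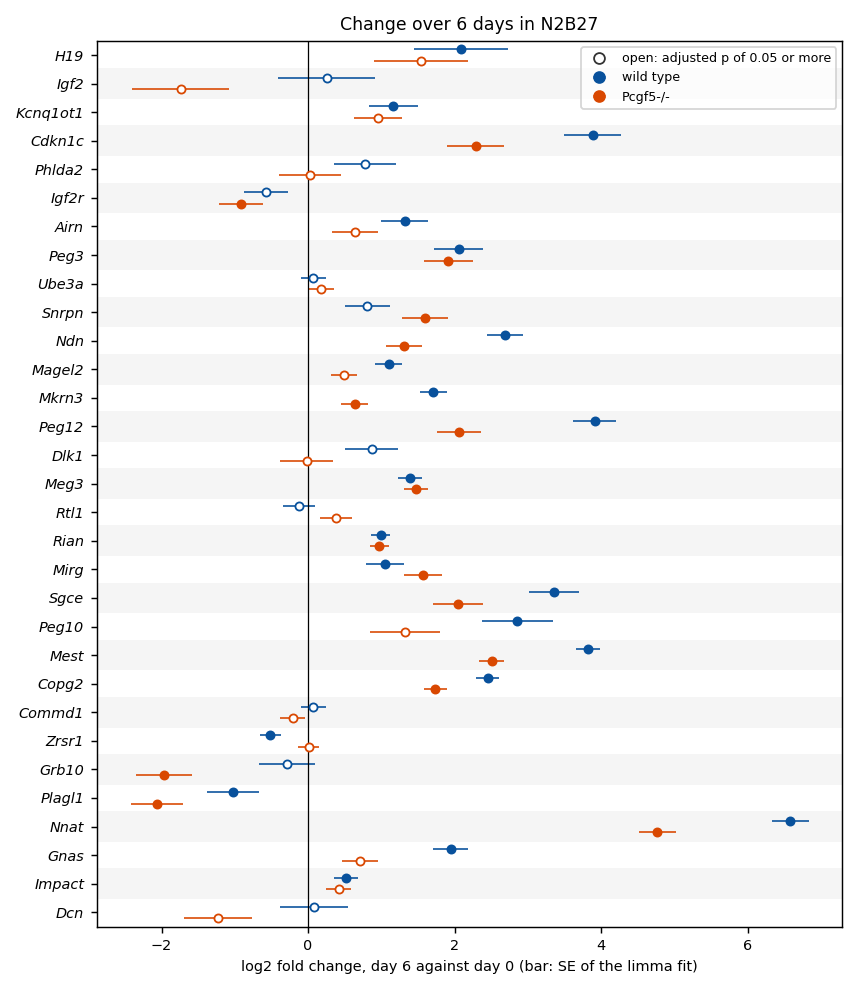
Log2 fold change of day 6 against day 0 for the 31 tested imprinted genes, wild type in blue and Pcgf5-/- in orange, with bars for the standard error of the fit and filled points for an adjusted p under 0.05. Nnat lies furthest right in both genotypes, at 6.58 and 4.77, and Plagl1 and Grb10 lie furthest left among the filled points. Magel2 is drawn although it passed the filter only through the group where it is high, and Airn and Kcnq1ot1 although they passed only through the day 6 groups.

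Between genotypes at day 0, Mest was higher in Pcgf5-/- cells and no other imprinted gene passed the test. That is 1 of 31 higher and 0 lower, against 0.288% and 0.0454% of all genes tested by limma. At an unadjusted p under 0.05 there were 8, against 2294 of the 13214 genes. The median was 0.42 over the imprinted genes and 0.11 over all genes. Under quantile normalization the median of all genes dropped by 0.12, and all calls went from 38 higher and 6 lower to 0 and 3, without Mest. Among the imprinted genes 23 lay above 0 and 8 below, and among all genes 8702 and 4483.

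At day 6, 4 imprinted genes were higher in Pcgf5-/- (Zrsr1, Rian, Mirg and Meg3) and 6 were lower (Nnat, Cdkn1c, Gnas, Plagl1, Peg12 and Mkrn3), of 31 tested. Over all genes 9.57% were higher and 7.05% lower. The median was -0.51 over the 31 imprinted genes, -0.36 without Magel2 and 0.02 over all genes. All genes split into 1265 higher and 932 lower, and into 851 and 973 with each library centred per chromosome, where 3 imprinted genes were higher and 7 lower. None of the 10 calls held under every alternative tried. Leaving out 1 day 6 library left a lone sample, assumed to vary like the other groups. Most or all of the 10 calls were lost on leaving out any one of the day 6 libraries. Left out 1 at a time, these libraries moved the difference of Nnat to -1.09 to -0.80 where the call was lost (all but Pcgf5-/- replicate 2, adjusted p of 0.0842 to 0.155), that of Peg12 to -1.23 to -0.84 (adjusted p of 0.0894 to 0.235) and that of Zrsr1 to 0.68 to 0.74 (adjusted p of 0.0675 to 0.0925). The Gnas call was lost without any of these libraries or a wild-type library of day 0 (-1.05 to -0.69, adjusted p of 0.0559 to 0.204). By background parent of origin, 3 of 7 maternally expressed genes tested were higher and 1 was lower, and 1 of 18 paternally expressed genes was higher and 4 were lower. The 3 maternal genes that were higher share 1 locus.

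The difference between genotypes changed between the days, by the interaction term of the same fit, for Mest and Nnat. Both values were negative, so of 31 genes 0 were higher and 2 lower, against 1.34% and 1.75% of all genes. At an unadjusted p under 0.05 there were 12 of the 31, against 3064 of the 13214 genes. Magel2 is among these 12, though only its level in wild type at day 6 brought it past the filter. The median interaction was -0.71 over the imprinted genes, -0.73 without Magel2 and -0.10 over all genes. All genes split into 177 higher and 231 lower, and under quantile normalization into 307 and 225. Leaving out 1 library, the Mest call was lost for each of 7 libraries (all but wild-type replicate 1 of day 6), with values of -1.49 to -1.14 and adjusted p of 0.0530 to 0.133. The Nnat call was lost for each of 7 (all but wild-type replicate 1 of day 0), with values of -2.06 to -1.46 and adjusted p of 0.0717 to 0.146.

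**Figure D3:**
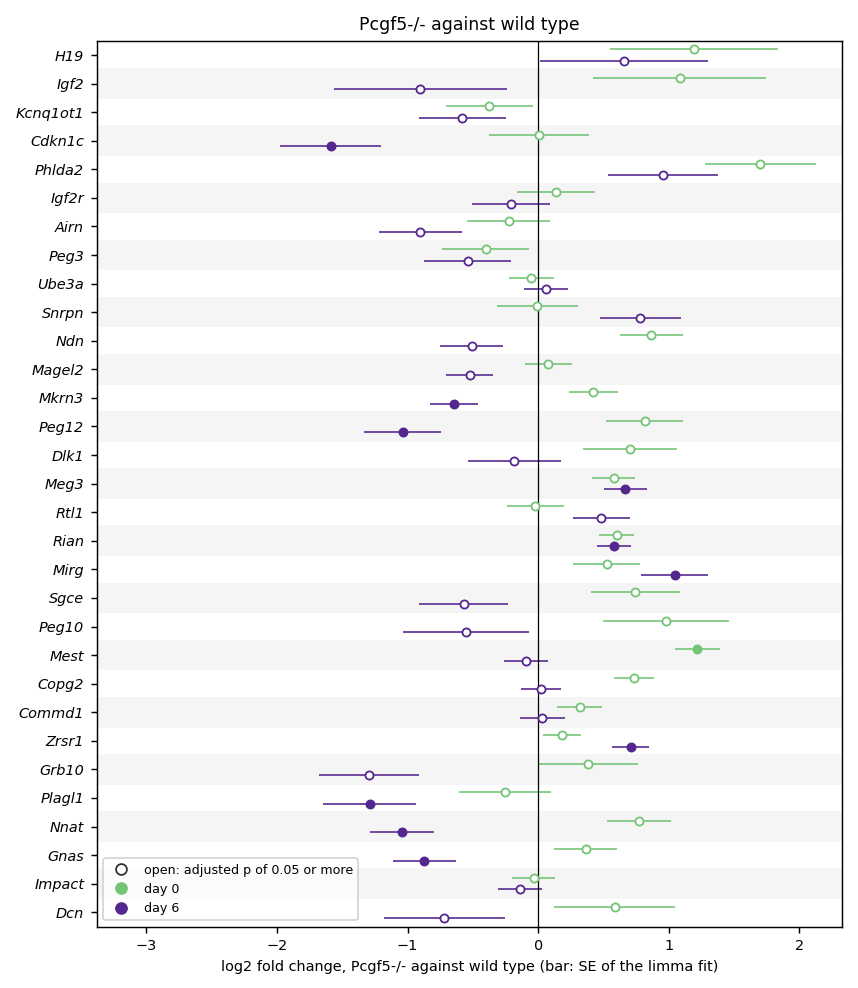
Log2 fold change of Pcgf5-/- against wild type at day 0 (green) and day 6 (purple) for the 31 tested imprinted genes, with bars for the standard error of the fit and filled points for an adjusted p under 0.05. At day 0 the single filled point is Mest at 1.22, and at day 6 the filled points run from Cdkn1c at -1.59 to Mirg at 1.05.

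The Snrpn to Ube3a domain on chromosome 7 spans 3125 kb and corresponds to the human Prader-Willi and Angelman region. Its paternally expressed genes encode SmN, a core splicing protein (Snrpn), necdin and MAGEL2 of the MAGE family (Ndn, Magel2), a RING-finger ubiquitin ligase (Mkrn3) and a GSK3-binding protein (Peg12). Peg12 stood at 1.17 and 2.39 FPKM in wild type and 2.82 and 4.96 in Pcgf5-/- at day 0, and at 35.2 and 45.0 against 16.3 and 21.8 at day 6. It rose by a log2 fold change of 3.91 (SE 0.30, adjusted p = 3.48e-05) in wild type and 2.06 (SE 0.30, adjusted p = 0.00193) in Pcgf5-/-. At day 6 both Pcgf5-/- libraries lay below both wild-type libraries, with a log2 difference of -1.04 (SE 0.30, adjusted p = 0.0477), while at day 0 both lay above, with 0.82 (SE 0.30, adjusted p = 0.205). The interaction was -1.85 (SE 0.42, adjusted p = 0.0545). It passed with the replicate number as a block (adjusted p = 0.0295) or with day-specific blocks (adjusted p = 0.0180), and under the latter the day 0 difference passed too (adjusted p = 0.0487).

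Ndn had the same order of groups. Its libraries gave 6.90 and 5.99 FPKM in wild type and 10.5 and 15.0 in Pcgf5-/- at day 0, and 40.5 and 54.4 against 26.9 and 39.6 at day 6. It rose by 2.69 (SE 0.24, adjusted p = 8.14e-05) in wild type and by 1.31 (SE 0.24, adjusted p = 0.00548) in Pcgf5-/-. The genotype difference was 0.87 (SE 0.24, adjusted p = 0.119) at day 0 and -0.51 (SE 0.24, adjusted p = 0.187) at day 6, and neither passed the test. The interaction of Ndn was -1.38 (SE 0.34, adjusted p = 0.0680), and it passed with a replicate block (adjusted p = 0.0494) or with day-specific blocks (adjusted p = 0.0340). Mkrn3 went from 0.536 and 0.859 to 4.61 and 4.42 FPKM in wild type and from 1.14 and 1.40 to 2.65 and 2.40 in Pcgf5-/-, with no overlap between genotypes on either day. Its rise in Pcgf5-/- (0.64 (SE 0.19, adjusted p = 0.0320)) was lost without any one Pcgf5-/- library (0.55 to 0.72, adjusted p of 0.0615 to 0.144). Its day 6 difference was -0.65 (SE 0.19, adjusted p = 0.0486) and its day 0 difference 0.42 (SE 0.19, adjusted p = 0.292). The day 6 call was lost on leaving out any one of the 8 libraries, with adjusted p of 0.0526 to 0.161, and with a replicate block (adjusted p = 0.0537). The interaction of Mkrn3 was -1.07 (SE 0.26, adjusted p = 0.0655), and it passed with day-specific blocks (adjusted p = 0.0412).

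Magel2 was low at day 0, at 0.0895 and 0.126 FPKM in wild type and 0.187 and 0.153 in Pcgf5-/-. At day 6 it reached 1.10 and 1.68 against 0.695 and 0.603, with the Pcgf5-/- libraries below the wild-type ones and a log2 difference of -0.52. Its log2 change over the days was 1.10 in wild type and 0.49 in Pcgf5-/-. Since Magel2 was tested only because of its level in wild type at day 6, these values are a description and no test is given. The groups of Snrpn were ordered otherwise. Its values were 34.4 and 40.7 FPKM in wild type and 54.7 and 25.2 in Pcgf5-/- at day 0, with overlap, and 76.0 and 57.8 against 118 and 111 at day 6, with both Pcgf5-/- libraries higher. Its day 6 difference of 0.78 (SE 0.31, adjusted p = 0.122) did not pass, and its rise was 1.60 (SE 0.31, adjusted p = 0.00661) in Pcgf5-/- and 0.81 (SE 0.31, adjusted p = 0.0585) in wild type. The Snrpn row shares 22655 bp of its locus with the Snurf row, and reads of the pair cannot be told apart with certainty. Ube3a, the ubiquitin ligase that neurons express from the maternal copy, held a level of 19.4 to 25.9 FPKM in all 8 libraries. Its day change was 0.07 (SE 0.17, adjusted p = 0.759) in wild type, with a 95% interval of -0.32 to 0.46.

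The Dlk1 to Meg3 domain (chr12:110691033-110987667) pairs 3 maternally expressed noncoding RNAs with the paternally expressed Dlk1, a transmembrane protein related to Notch ligands, and Rtl1, a protein derived from a retrotransposon. Rian hosts small nucleolar RNAs and Mirg microRNAs. Meg3 measured 54.8 and 42.8 FPKM in wild type and 78.3 and 67.7 in Pcgf5-/- at day 0, and 117 and 141 against 189 and 222 at day 6. On each day both Pcgf5-/- libraries lay above both wild-type libraries. The genotype difference was 0.58 (SE 0.16, adjusted p = 0.124) at day 0 and 0.67 (SE 0.16, adjusted p = 0.0306) at day 6, and the rise over the days 1.39 (SE 0.16, adjusted p = 0.000303) in wild type and 1.48 (SE 0.16, adjusted p = 0.000657) in Pcgf5-/-.

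Rian gave 47.9 and 52.8 FPKM against 85.1 and 69.3 at day 0 and 98.4 and 104 against 158 and 146 at day 6, wild type first. Mirg gave 5.55 and 7.52 against 12.6 and 7.52 FPKM at day 0, and 12.4 and 16.8 against 33.4 and 28.7 at day 6. The groups of Rian did not overlap on either day, and those of Mirg were apart at day 6 and met at day 0. The genotype difference of Rian was 0.60 (SE 0.13, adjusted p = 0.0789) at day 0 and 0.58 (SE 0.13, adjusted p = 0.0233) at day 6. For Mirg it was 0.52 (SE 0.26, adjusted p = 0.343) and 1.05 (SE 0.26, adjusted p = 0.0300). The interaction was near 0 for Meg3 (95% interval -0.45 to 0.63) and Rian (-0.45 to 0.41) and 0.52 (SE 0.36, adjusted p = 0.424) for Mirg.

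Leaving out a day 6 library moved the day 6 values to between 0.54 and 0.80 for Meg3, 0.53 and 0.64 for Rian and 0.84 and 1.25 for Mirg, with adjusted p of 0.0625 to 0.152. The rise of Mirg in wild type (1.05 (SE 0.26, adjusted p = 0.00991)) was lost without replicate 1 of day 0 (0.86, adjusted p = 0.0652) or replicate 2 of day 6 (0.85, adjusted p = 0.0731). The coding genes of the domain were far lower. Dlk1 stood at 0.498 and 0.163 FPKM in wild type and 0.403 and 2.30 in Pcgf5-/- at day 0, and at 1.45 and 1.37 against 1.25 and 1.00 at day 6. Its highest library was Pcgf5-/- replicate 2 of day 0, the one with the most fibroblast marker RNA. Rtl1, on the strand opposite to the RNAs, ranged from 0.705 to 1.65 FPKM over the 8 libraries, and its day 6 difference was 0.48 (SE 0.22, adjusted p = 0.168). Chromosome 12 as a whole had a median genotype difference of -0.05 at day 6.

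Nnat encodes neuronatin, a small membrane protein of the endoplasmic reticulum found in developing brain, and lies in an intron of Blcap. It had the largest rise of all 13214 genes tested in wild type over the 6 days. Its level was 3.65 and 1.85 FPKM in wild type and 5.76 and 4.71 in Pcgf5-/- at day 0, and 337 and 358 against 142 and 199.5 at day 6. At day 0 both Pcgf5-/- libraries lay above both wild-type ones, and at day 6 both lay below. The rise was 6.58 (SE 0.25, adjusted p = 4.22e-06) in wild type, which is 95.7-fold on the log2(FPKM + 1) scale, and 4.77 (SE 0.25, adjusted p = 6.82e-05) in Pcgf5-/-, or 27.2-fold. The genotype difference was 0.77 (SE 0.25, adjusted p = 0.160) at day 0 and -1.04 (SE 0.25, adjusted p = 0.0267) at day 6, and the interaction -1.81 (SE 0.35, adjusted p = 0.0396). In wild type at day 6 it was the gene with rank 117 of all rows by mean FPKM, after rank 9239 at day 0. Its 2448 bp lie wholly within the Blcap row. Blcap itself gave 12.8 and 14.4 FPKM in wild type and 7.43 and 8.17 in Pcgf5-/- at day 6, a difference of -0.73 (SE 0.17, adjusted p = 0.0241).

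Mest and Copg2 overlap at their ends by 913 bp on chromosome 6. Mest encodes a protein of the alpha/beta hydrolase fold, and Copg2 a coat protein of COPI vesicles. Mest measured 18.6 and 23.9 FPKM in wild type and 46.6 and 54.7 in Pcgf5-/- at day 0, and 276 and 351 against 281 and 303 at day 6. The groups were apart at day 0 and overlapped at day 6. The genotype difference was 1.22 (SE 0.17, adjusted p = 0.0472) at day 0, with a 95% interval of 0.83 to 1.61, and -0.09 (SE 0.17, adjusted p = 0.750) at day 6, with an interval of -0.48 to 0.30. The rise over the days was 3.82 (SE 0.17, adjusted p = 5.83e-06) in wild type and 2.51 (SE 0.17, adjusted p = 0.000106) in Pcgf5-/-, and the interaction was -1.31 (SE 0.24, adjusted p = 0.0348).

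Copg2 gave 22.5 and 25.4 FPKM against 43.7 and 37.5 at day 0 and 124 and 147 against 124 and 151 at day 6, wild type first. The day 0 difference was 0.74 (SE 0.15, adjusted p = 0.0701) and the day 6 difference 0.02 (SE 0.15, adjusted p = 0.936). With each library centred on the median of each chromosome, the day 0 difference of Mest was 0.78 (adjusted p = 0.192) and that of Copg2 0.30 (adjusted p = 0.513). The part of the chromosome-wide shift in these values was not tested further. The day 0 call of Mest was also lost on leaving out any one library, with values of 1.05 to 1.39 and adjusted p of 0.0846 to 0.217. The interaction of Mest was -1.27 (adjusted p = 0.0384) after centring.

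Peg10 and Sgce share a promoter region on chromosome 6 and are read in opposite directions. Peg10 is a retrotransposon-derived gene needed in the placenta, and Sgce encodes epsilon-sarcoglycan, a membrane protein active in brain. Peg10 stood at 34.5 and 8.81 FPKM in wild type and 37.6 and 34.1 in Pcgf5-/- at day 0, and at 143 and 126 against 103 and 80.5 at day 6. Wild-type replicate 2 of day 0 was the low library for both genes. Sgce stood at 4.54 and 1.60 against 5.80 and 4.92 FPKM at day 0, and 32.0 and 44.7 against 21.9 and 28.9 at day 6. Peg10 rose by 2.85 (SE 0.48, adjusted p = 0.00167) in wild type, and leaving out 1 library gave 1.93 (without replicate 2 of day 0) to 3.78 (without replicate 1 of day 0). In Pcgf5-/- its change was 1.32 (SE 0.48, adjusted p = 0.0663), which passed under 5 of the 19 alternatives, a replicate block among them (adjusted p = 0.0396). Its day 0 genotype difference was 0.98 (SE 0.48, adjusted p = 0.345), and without wild-type replicate 1 of day 0 it was 1.91 (adjusted p = 0.0346). Sgce rose by 3.36 (SE 0.34, adjusted p = 0.000141) in wild type and 2.04 (SE 0.34, adjusted p = 0.00352) in Pcgf5-/-. At day 6 both Pcgf5-/- libraries lay below the wild-type ones for both genes, with differences of -0.55 (SE 0.48, adjusted p = 0.467) and -0.57 (SE 0.34, adjusted p = 0.286) that did not pass. Peg10 exceeded Sgce by 2.79 to 7.61 times in FPKM across the libraries.

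The adjoining H19 and Kcnq1ot1 clusters lie at the distal end of chromosome 7. H19 is a maternally expressed long noncoding RNA and Igf2 a growth factor made from the paternal copy. H19 measured 33.2 and 8.67 FPKM in wild type and 23.0 and 70.6 in Pcgf5-/- at day 0, and 55.6 and 104 against 122 and 119 at day 6. Igf2 measured 15.0 and 9.90 against 10.8 and 65.5 FPKM at day 0, and 11.7 and 18.5 against 7.57 and 7.27 at day 6. Replicates of day 0 differed by up to 6.05 times for Igf2, whose genotype difference was 1.08 (SE 0.66, adjusted p = 0.451) at day 0 and -0.90 (SE 0.66, adjusted p = 0.382) at day 6. At day 6 both Pcgf5-/- libraries were above both wild-type libraries for H19 and below them for Igf2. H19 rose by 2.08 (SE 0.64, adjusted p = 0.0262) in wild type, a call lost without wild-type replicate 2 of day 0 (1.17, adjusted p = 0.170) or of day 6 (1.64, adjusted p = 0.145).

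The ratio of H19 to Igf2 in a library was 2.20 and 0.875 in wild type and 2.13 and 1.08 in Pcgf5-/- at day 0. At day 6 it was 4.76 and 5.59 in wild type and 16.1 and 16.3 in Pcgf5-/-. The ratios of the genotypes thus overlapped at day 0 and not at day 6. With 2 libraries against 2, an exact permutation test cannot go below a two-sided p of 0.333, so none is given. The genotype difference of H19 at day 6 was 0.66 (SE 0.64, adjusted p = 0.521).

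Pcgf5-/- replicate 2 of day 0 had the highest Igf2 and Grb10 of the 8 libraries and also the highest fibroblast marker sum. Between the Pcgf5-/- libraries of day 0, replicate 2 exceeded replicate 1 by 6.05 times for Igf2, 5.72 for Dlk1, 3.07 for H19, 2.34 for Grb10, 2.31 for Usp29, 2.1 for Cdkn1c, 1.76 for Peg12, 1.74 for Igf2r, 1.67 for Gnas and 1.58 for Dcn, and by 3.72 times for the marker sum. Airn was listed at 0 in replicate 1 and stood at 0.655 FPKM in replicate 2. The remaining imprinted genes with a value had ratios from 0.233 (Slc22a18) to 1.43 (Ndn), among them 0.460 for Snrpn, 0.865 for Meg3 and 1.18 for Mest. Without this library the day 0 difference was -0.16 (adjusted p = 0.909) for Igf2, 0.40 (adjusted p = 0.882) for H19, -0.20 (adjusted p = 0.884) for Grb10 and 0.09 (adjusted p = 0.942) for Dlk1. None of the 15 markers differed between genotypes on either day by limma's adjusted p, with 0 at an unadjusted p under 0.05 at day 0 and 2 at day 6. The part of feeder RNA in the values of these genes was not tested further.

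**Figure D4:**
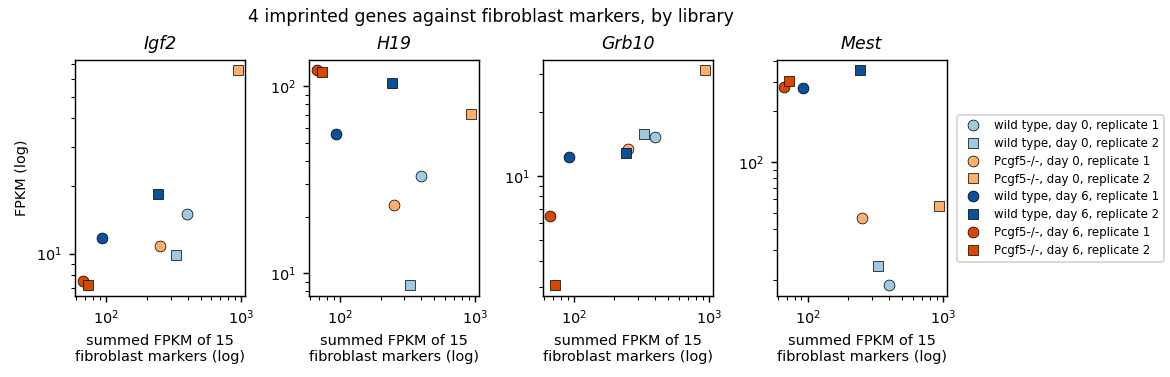
FPKM of Igf2, H19, Grb10 and Mest against the summed FPKM of 15 fibroblast markers, 1 point per library, circles for replicate 1 and squares for replicate 2, both axes logarithmic. The Pcgf5-/- replicate 2 library of day 0, at a sum of 937, has the highest Igf2 (65.5) and Grb10 (31.3), while the highest Mest (351) is at a sum of 243.

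In the Kcnq1ot1 cluster, Cdkn1c encodes the cell-cycle inhibitor p57, Phlda2 restrains placental growth, Ascl2 is a trophoblast transcription factor and Slc22a18 a transporter, and all of them are expressed from the maternal copy. Cdkn1c rose from 1.98 and 0.524 to 38.4 and 24.0 FPKM in wild type and from 0.763 and 1.60 to 11.8 and 7.53 in Pcgf5-/-. Its rise was 3.88 (SE 0.38, adjusted p = 0.000126) in wild type and 2.29 (SE 0.38, adjusted p = 0.00365) in Pcgf5-/-. At day 6 the Pcgf5-/- libraries lay below the wild-type ones, by a log2 difference of -1.59 (SE 0.38, adjusted p = 0.0284), the lowest among the imprinted genes. At day 0 the groups overlapped (0.01 (SE 0.38, adjusted p = 0.998)). Leaving out a day 6 library gave -1.26 to -1.92, with adjusted p of 0.0657 to 0.139.

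Phlda2 stood at 4.67 and 1.11 FPKM in wild type and 11.6 and 9.08 in Pcgf5-/- at day 0, and at 6.10 and 3.93 against 9.07 and 12.1 at day 6, with the Pcgf5-/- libraries above on both days. The differences were 1.70 (SE 0.42, adjusted p = 0.0918) and 0.95 (SE 0.42, adjusted p = 0.159), and neither passed. The noncoding RNA Kcnq1ot1 was low, at 0.708 and 1.17 against 0.515 and 0.455 FPKM at day 0 and 1.94 and 5.31 against 1.67 and 2.1 at day 6, wild type first. It rose in wild type by 1.16 (SE 0.33, adjusted p = 0.0196), a call lost without wild-type replicate 1 of day 0 (0.99, adjusted p = 0.105) or replicate 2 of day 6 (0.61, adjusted p = 0.0854). Kcnq1ot1 passed the filter only through its day 6 groups, so a rise was favoured in advance and its p-value lends no support. Its locus lies within Kcnq1, and without strand its reads cannot be told from those of Kcnq1 introns. Ascl2 ranged from 0.197 to 0.815 FPKM and Slc22a18 from 0.0853 to 1.22, and both stayed under the filter.

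Igf2r, the receptor that clears IGF2, and Airn, the noncoding RNA that crosses its start on the other strand, share 28396 bp. Igf2r measured 14.5 and 13.4 FPKM in wild type and 11.7 and 20.3 in Pcgf5-/- at day 0, and 11.5 and 7.09 against 9.11 and 6.49 at day 6. Airn measured 0.837 and 0.232 against 0 and 0.655 FPKM at day 0, and 2.02 and 3.65 against 0.970 and 1.05 at day 6. Airn rose in wild type by 1.32 (SE 0.32, adjusted p = 0.00942) and stood lower in both Pcgf5-/- libraries at day 6, by -0.90 (SE 0.32, adjusted p = 0.0893), which did not pass. Airn passed the filter only through its day 6 groups, so a rise was favoured in advance and its p-value lends no support. The call of this rise was lost under 5 of 18 alternatives. The Airn rise was lost without replicate 2 of day 0 (1.03, adjusted p = 0.0660) or of day 6 (1.01, adjusted p = 0.0605) in wild type. Igf2r fell in Pcgf5-/- by -0.92 (SE 0.30, adjusted p = 0.0467), a call lost without replicate 2 of day 0 (-0.54 (adjusted p = 0.239)), the library with the high fibroblast sum. It was also lost without either Pcgf5-/- library of day 6 (-1.13 with adjusted p = 0.0720, and -0.70 with adjusted p = 0.218) or either wild-type library of day 0 (adjusted p = 0.0690 and 0.0689).

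Grb10 encodes an adaptor that dampens insulin receptor signalling, and Plagl1 a zinc finger factor that arrests the cell cycle. Grb10 stood at 15.2 and 15.8 FPKM in wild type and 13.4 and 31.3 in Pcgf5-/- at day 0, and at 12.3 and 12.8 against 6.44 and 3.08 at day 6. It fell in Pcgf5-/- by a log2 change of -1.97 (SE 0.38, adjusted p = 0.00672), and -1.38 (adjusted p = 0.0271) without the fibroblast-rich library. In wild type its change was -0.29 (SE 0.38, adjusted p = 0.557). The day 6 difference of -1.30 (SE 0.38, adjusted p = 0.0536) missed the threshold, and with each library centred per chromosome it was -1.69 (adjusted p = 0.0289). Plagl1 fell from 39.2 and 48.1 to 13.2 and 32.4 FPKM in wild type and from 39.8 and 33.0 to 6.69 and 9.32 in Pcgf5-/-. Its log2 change was -1.03 (SE 0.36, adjusted p = 0.0406) in wild type and -2.07 (SE 0.36, adjusted p = 0.00407) in Pcgf5-/-. Both Pcgf5-/- libraries of day 6 lay below both wild-type libraries, by -1.29 (SE 0.36, adjusted p = 0.0425), with wild-type replicate 2 far above replicate 1. The call was lost without any library but wild-type replicate 1 of day 6 (adjusted p of at least 0.0605). Without wild-type replicate 2 of day 6 the difference was -0.67 (adjusted p = 0.162), and without wild-type replicate 1 of day 6 the fall in wild type was -0.41 (adjusted p = 0.208). The fall in wild type was lost without any library but wild-type replicate 2 of day 6 (-1.17 to -0.41, adjusted p of 0.0544 to 0.208).

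Zrsr1, a splicing factor related to U2AF that arose by retrotransposition, lies inside an intron of Commd1, a copper homeostasis gene, on chromosome 11. Zrsr1 gave 10.4 and 9.67 FPKM in wild type and 11.5 and 11.6 in Pcgf5-/- at day 0, and 6.75 and 6.67 against 11.4 and 11.8 at day 6. Replicates of a group were close together and the genotypes did not overlap on either day. The difference was 0.18 (SE 0.14, adjusted p = 0.562) at day 0 and 0.71 (SE 0.14, adjusted p = 0.0163) at day 6. In wild type it fell by a log2 change of -0.51 (SE 0.14, adjusted p = 0.0173), and in Pcgf5-/- the change was 0.01 (SE 0.14, adjusted p = 0.966). The fall in wild type was lost without wild-type replicate 1 of day 0 (-0.47, adjusted p = 0.0696) or either of day 6 (adjusted p = 0.0707 and 0.0838). With each library centred per chromosome the day 6 genotype difference was 0.31 (adjusted p = 0.175), and the part of the chromosome-wide shift was not tested further. Commd1, from the same locus, ranged from 56.5 to 87.0 FPKM and its day 6 difference was 0.03 (SE 0.17, adjusted p = 0.920).

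**Figure D5:**
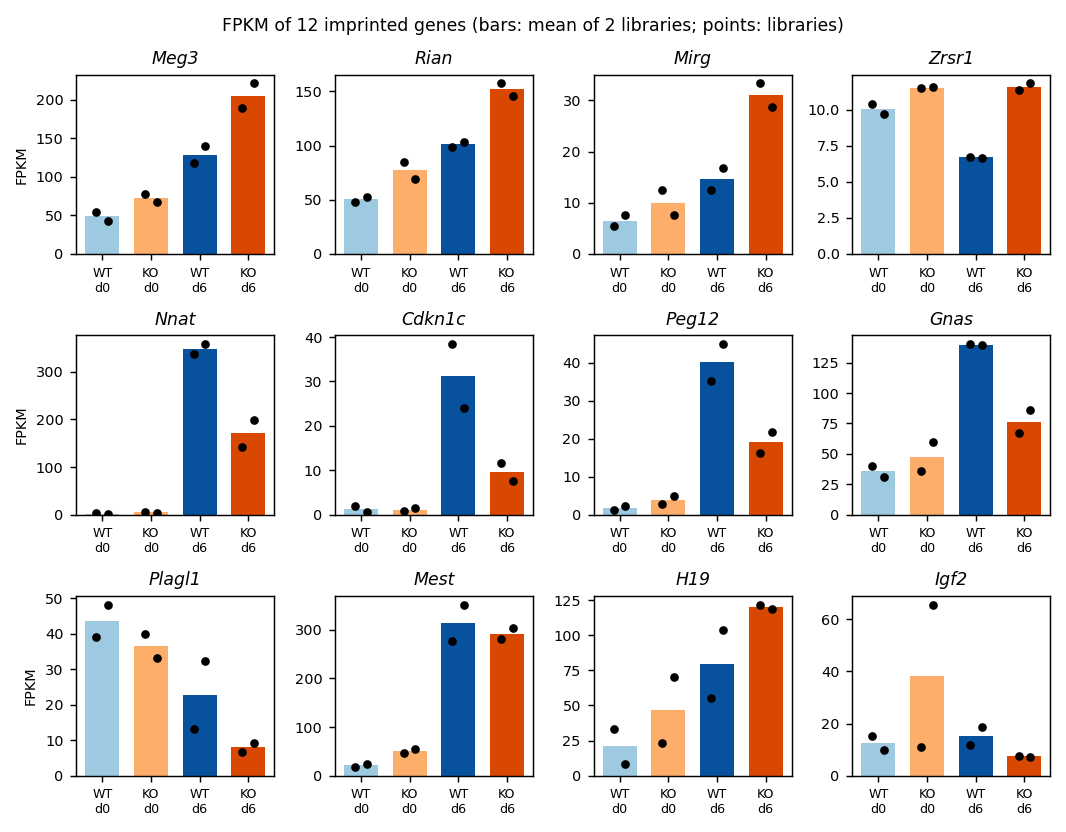
FPKM of 12 imprinted genes on a linear scale from 0, bars for the mean of 2 libraries and points for each library, in wild type (WT) and Pcgf5-/- (KO) at day 0 (d0) and day 6 (d6). Meg3, Rian and Mirg stand higher in the Pcgf5-/- libraries of day 6 than in wild type, Nnat, Cdkn1c, Peg12 and Gnas lower, and the paired points of H19 and Igf2 at day 0 lie far apart.

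Gnas, which encodes the stimulatory G protein alpha subunit together with imprinted upstream transcripts, rose in wild type from 40.2 and 31.4 to 140.3 and 139 FPKM. In Pcgf5-/- it went from 35.6 and 59.5 to 66.8 and 86.2. The rise was 1.95 (SE 0.24, adjusted p = 0.000360) in wild type and 0.71 (SE 0.24, adjusted p = 0.0534) in Pcgf5-/-, where it passed without replicate 2 of day 0 (1.07 (adjusted p = 0.0148)). At day 6 the Pcgf5-/- libraries lay below the wild-type ones by -0.87 (SE 0.24, adjusted p = 0.0422). The row adds up all transcripts of the locus, so its imprinted and its biallelic transcripts cannot be told apart. Peg3, a zinc finger gene active in brain and placenta, went from 8.19 and 9.26 to 33.6 and 45.9 FPKM in wild type and from 6.18 and 6.54 to 40.3 and 17.6 in Pcgf5-/-. It rose by 2.05 (SE 0.33, adjusted p = 0.00138) and 1.91 (SE 0.33, adjusted p = 0.00426), and the genotypes overlapped at day 6 (-0.54 (SE 0.33, adjusted p = 0.301)). Its neighbours Usp29 (0.230 to 0.875 FPKM) and Zim1 (0.153 to 0.386 FPKM) stayed under the filter.

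Impact, which restrains the eIF2 kinase GCN2 and is abundant in neurons, went from 54.9 and 72.5 to 102 and 80.9 FPKM in wild type. Its rise was 0.52 (SE 0.17, adjusted p = 0.0302), a call lost without wild-type replicate 1 of day 0 (0.32, adjusted p = 0.175) or of day 6 (0.35, adjusted p = 0.177). In Pcgf5-/- it went from 60.9 and 62.2 to 86.1 and 79.0, by 0.42 (SE 0.17, adjusted p = 0.0878). Dcn, which encodes the matrix proteoglycan decorin, ranged from 1.33 to 6.32 FPKM and was highest in the fibroblast-rich library. Wild-type replicate 1 of day 0 came close at 5.95 FPKM, while replicate 2 of that group was the lowest library. Rasgrf1, a Ras exchange factor of neurons, was listed at 0 in 7 libraries and at 0.0385 FPKM in wild-type replicate 1 of day 6.

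A further 44 imprinted genes outside the list were looked at for comparison, of which 43 had a row and 30 were tested. In wild type 14 of these rose and 9 fell over the 6 days, led by Dio3 (-2.87), Peg13 (2.01), Slc38a4 (-1.95), Ddc (-1.89) and Tnfrsf23 (-1.87). In Pcgf5-/- 8 rose and 5 fell. The shares of all genes were 34.2% and 16.2% in wild type and 21.9% and 10.4% in Pcgf5-/-. None passed between genotypes at day 0 by limma's adjusted p, with 5 at an unadjusted p under 0.05, against 2294 of the 13214 genes. At day 6, 5 were higher in Pcgf5-/- (Ddc, Atp10a, Slc38a4, Pon3 and Gab1) and 1, Blcap, was lower, where 9.57% and 7.05% of all genes were.

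Slc38a4, an amino acid transporter, gave 10.6 and 12.6 FPKM in wild type and 33.2 and 25.5 in Pcgf5-/- at day 6, after 46.9 and 48.1 against 32.4 and 44.2 at day 0. Its day 6 difference was 1.26 (SE 0.19, adjusted p = 0.00761) and its interaction 1.58 (SE 0.27, adjusted p = 0.0315). Ddc, the aromatic amino acid decarboxylase gene next to Grb10, gave 3.74 and 3.83 against 11.1 and 12.3 FPKM at day 6. Its difference was 1.40 (SE 0.15, adjusted p = 0.00377) and its interaction 1.03 (SE 0.21, adjusted p = 0.0440). Like Grb10 it lies on chromosome 11, where the median difference at day 6 was 0.38, and the part of that shift was not tested. The interaction of Gab1, an adaptor of receptor kinases, was 1.22 (SE 0.26, adjusted p = 0.0491). These 3 interactions were positive, while the 2 among the 36 genes were negative. All 3 lay near the threshold, and the alternatives were not examined for these genes, so how firm the 3 calls are is not known. The medians at day 6 were -0.09 for the 30 further genes tested and -0.51 for the 31 tested of the 36. Without Magel2 the latter was -0.36.

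Of 14 genes that keep imprints, 13 were tested. Zfp445, whose protein binds imprinting control regions together with ZFP57, was lower in Pcgf5-/- on both days. It stood at 10.7 and 11.6 FPKM in wild type and 2.98 and 4.58 in Pcgf5-/- at day 0, and at 18.5 and 16.3 against 6.57 and 5.86 at day 6, with differences of -1.36 (SE 0.20, adjusted p = 0.0475) and -1.35 (SE 0.20, adjusted p = 0.00741). Zfp57 was 37.8 and 40.2 FPKM against 75.7 and 76.8 at day 6, a difference of 0.95 (SE 0.22, adjusted p = 0.0254), and overlapped between genotypes at day 0 (0.05 (SE 0.22, adjusted p = 0.949)). Dppa3, which protects maternal methylation in the early embryo, was 18.7 and 7.78 against 63.2 and 86.3 FPKM at day 6, a difference of 2.51 (SE 0.43, adjusted p = 0.0104). The day 0 call of Zfp445 lay near the threshold, and the alternatives were not examined for this set, so how firm its calls are is not known. No other gene of this set, Dnmt1, Uhrf1 and Trim28 included, passed the test between the genotypes on either day. That is 0 higher and 1 lower at day 0, against 0.288% and 0.0454% of all genes, and 2 higher and 1 lower at day 6, against 9.57% and 7.05%. Over the 6 days in wild type 4 of the 13 rose and 4 fell, with Zfp57 at -1.49 (SE 0.22, adjusted p = 0.000886) and Ehmt1, a histone H3K9 methyltransferase, at 1.24 (SE 0.14, adjusted p = 0.000231). In Pcgf5-/- 5 rose and 1 fell. The shares of all genes were those given for the further imprinted genes.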

How the data were processed

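PolyA RNA-seq of 8 libraries (wild type and Pcgf5-/-, day 0 and day 6, 2 each) was used. The authors trimmed and filtered the reads, removed identical duplicates and aligned to mm9, and the deposited FPKM values per gene were computed with cufflinks. The submitters' processing notes name TopHat2 2.0.4 and Cufflinks 2.1.1. The annotation and the strandedness of the libraries are not given in the sources used here, so overlapping and antisense genes are uncertain, and removal of duplicates lowers the most abundant transcripts. FPKM bounds, also deposited, were not used as errors, since 18 of 288 values lay outside their own bounds.

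Files were joined on gene ID and locus. FPKM were tested as log2(FPKM + 1), so fold changes of weakly expressed genes are understated, for the 13214 genes with a group mean over 1 FPKM, in 1 fit of all groups with limma 3.58.1 in R 4.3.3 (variance trend, no block). P-values were adjusted by Benjamini-Hochberg over all 13214 genes at a threshold of 0.05. The fit was tested on simulated data. Python 3.11.15 (pandas 2.3.3, numpy 2.4.6) read and joined the files. The mm9 coordinates were checked against the NCBIM37 annotation, where 99.76% of 20374 genes overlapped their namesake.

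All 36 imprinted genes are named. From the other lists, the genes past the threshold were eligible, largest change first and up to 5 per list and comparison, and beside them Dnmt1, Uhrf1 and Trim28 are named as textbook members. Members and lists were chosen with earlier results of these data known. Alternatives were other pseudocounts, filters and scalings, centring per chromosome, a replicate block, fits of the compared groups only or without the trend, and leaving out each library.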

Additional observations from a re-analysis of the deposited data

Results flagged for a closer look

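The difference between genotypes changed between day 0 and day 6 for Mest and Nnat, by the interaction term of the limma fit. Neither call held under every alternative. The interaction was -1.31 (SE 0.24, adjusted p = 0.0348) on the log2 scale for Mest, which was higher in both Pcgf5-/- libraries at day 0 (1.22) and overlapped between genotypes at day 6 (-0.09). It was -1.81 (SE 0.35, adjusted p = 0.0396) for Nnat, whose Pcgf5-/- libraries lay above wild type at day 0 (0.77) and below it at day 6 (-1.04). Groups of 2 libraries were too small to look for single libraries that stood apart by the usual gap test.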

How the results depend on the processing

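No result changed direction past the threshold under any of the 19 alternatives. Over 2884 comparisons of a member's result with an alternative, 2649 kept their side of the threshold, 169 lost it and 66 gained it. Of the 21 calls over the days in wild type, 14 passed under every alternative in which the gene was tested. These were Cdkn1c, Peg3, Ndn, Magel2, Mkrn3, Peg12, Meg3, Rian, Peg10, Sgce, Mest, Copg2, Nnat and Gnas. Magel2 and Mkrn3 were not tested with the filter of 5 FPKM, and Magel2 had to differ to pass the main filter. In Pcgf5-/- 14 of 16 calls passed under every alternative (Cdkn1c, Peg3, Snrpn, Ndn, Peg12, Meg3, Rian, Mirg, Sgce, Mest, Copg2, Plagl1, Grb10 and Nnat). None of the genotype or interaction calls did. The 1 gene higher in Pcgf5-/- at day 0 became 0 with centring per chromosome, a filter of 0.1 FPKM, no filter, the compared groups only, quantile normalization, a replicate block or no trend. The 4 higher at day 6 became 2 without a filter, and the 6 lower became 3 with a filter of 0.1 FPKM, 0 without a filter, 1 with a pseudocount of 0.01, and 3 with one of 0.1 or without the trend. The 2 lower over the days in wild type became 1 with a filter of 0.1 FPKM, without a filter, with the compared groups only or without the trend. The 2 lower interactions became 1 with centring, with a filter of 0.1 FPKM, or with a pseudocount of 0.01 or 0.1, and 0 without a filter. The causes were not tested. Leaving out 1 library gave 0 to 1 higher at day 0, 0 to 5 higher and 0 to 5 lower at day 6, 15 to 21 higher and 0 to 1 lower over the days in wild type, 12 to 15 higher and 2 to 4 lower in Pcgf5-/-, and 0 to 2 lower interactions. With centring per chromosome all genes split into 0 higher and 2 lower at day 0, 3331 and 3258 over the days in wild type, 2148 and 1932 in Pcgf5-/-, and 193 and 171 for the interaction.

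The study's methods speak of fold changes in paired Pcgf5-/- and wild-type samples, without saying which libraries were paired or by what, and the labels do not pair the replicate numbers. The differences between replicates 1 and 2 correlated across genes at 0.10 between the genotypes at day 0 and 0.39 at day 6. With the number as a replicate block, 0 imprinted genes were higher at day 0, 4 were higher and 5 lower at day 6 (Mkrn3 was lost), and 3 interactions were lower (Ndn and Peg12 were gained, and Nnat was lost at an adjusted p of 0.0502). With a replicate block for each day, 2 genes were higher at day 0 (Mest and Peg12) and 5 interactions were lower (Peg12, Ndn and Mkrn3 were gained). Under it Grb10 was gained (adjusted p = 0.0387) and Gnas lost (adjusted p = 0.0574) at day 6. The unknown number of fragments limits what can be said of values under 1 FPKM. Genes whose mean did not pass it in any group were not tested. Others were also compared where they were that low, such as Airn and Kcnq1ot1 between genotypes at day 0.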
